A study of Mus musculus with 34 samples.

Results

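The tripartite motif (TRIM) genes were described in mouse small cell lung cancer (SCLC) cells and tumors given the LSD1 inhibitor bomedemstat (BOM), which blocks a histone demethylase, with or without interferon gamma (IFNg). Members were all protein-coding genes whose symbol begins with Trim and a digit, 68 of the 30351 genes in the 10-day table, 28432 in the 96-hour table and 29745 in the tumor table. The rule itself reads symbols and gene types, and it was set with earlier results of these data known. After the filter on low counts, 39 members were tested at 10 days, 34 at 96 hours and 39 in tumors, 32 of them in every table. The 23 members tested in no table were Trim5, Trim6, Trim10, Trim29, Trim30b, Trim30c, Trim31, Trim34a, Trim34b, Trim38, Trim40, Trim42, Trim50, Trim52, Trim54, Trim58, Trim60, Trim61, Trim63, Trim68, Trim71, Trim75 and Trim80.

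The data were 34 RNA-seq libraries in 3 tables of read counts. At 96 hours, BOM (n = 3) was set against the solvent DMSO (n = 3) in the lines RP-116, RP-48 and G8545, with 1 library per line and treatment. Cultures of RP-48OVA-LLO190 cells lasted 10 days with BOM and IFNg (n = 2), with BOM (n = 2), with DMSO and IFNg (n = 3) or with DMSO (n = 3), IFNg being present for the last 48 hours. Flank tumors grown from the same line in immunocompetent mice were exposed for 16 days, by the sample labels (the series design gives a slightly wider range), to BOM with an antibody against PD1 (n = 4), BOM (n = 4), anti-PD1 (n = 5) or vehicle (n = 5). All 10-day and tumor results therefore rest on 1 modified line. Total counts were 8712025 to 9968681 at 96 hours, 5896627 to 9044398 at 10 days and 5638353 to 82205546 in tumors, where vehicle tumor 1 was the deepest. All 10 SCLC markers were tested in every table, and their summed level was between 2599 and 4752 CPM (counts scaled to a common library total) in cultured cells and between 2854 and 3767 CPM in tumors. Macrophage markers summed to at most 15.5 CPM at 10 days, with Adgre1, C1qa and C1qc at 0 in every library.

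Most TRIM proteins carry a RING domain that makes them E3 ubiquitin ligases, followed by B-boxes, a coiled coil and a variable C-terminal part. Interferons signal to GAS and ISRE elements in promoters, and many TRIM genes are interferon targets that restrict viruses or tune RIG-I and cGAS sensing. Others serve as chromatin regulators (the TIF1 group of TRIM24, TRIM28, TRIM33 and TRIM66), neuronal microtubule-associated ligases (TRIM9, TRIM67) or muscle proteins (TRIM54, TRIM55, TRIM63, TRIM72). LSD1 inhibition is known to derepress endogenous retroviral transcripts and antigen presentation genes in several tumor types, including SCLC.

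Promoter sequence is shown for the members whose response to IFNg carries the results, and for Trim30a, whose chromosome 7 neighbours were nearly silent in culture. Each line is the coding-strand stretch from 250 bases before to 30 bases after the RefSeq start, build GRCm38.p6, 5′ to 3′. Capitals mark matches to the ISRE core GAAANNGAA, read on either strand. The stretches are chr7:102565453-102565732 (minus strand) for Trim21, chr11:88999153-88999432 (plus) for Trim25, chr5:137116178-137116457 (minus) for Trim56, chr2:122160458-122160737 (plus) for the first of the Trim69 starts, and chr7:104465164-104465443 (minus) for the second of the Trim30a starts.
Trim21: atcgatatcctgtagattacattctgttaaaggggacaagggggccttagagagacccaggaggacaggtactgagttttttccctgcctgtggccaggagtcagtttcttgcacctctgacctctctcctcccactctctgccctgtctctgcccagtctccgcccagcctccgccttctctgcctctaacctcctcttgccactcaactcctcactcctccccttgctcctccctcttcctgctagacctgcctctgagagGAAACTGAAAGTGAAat
Trim25: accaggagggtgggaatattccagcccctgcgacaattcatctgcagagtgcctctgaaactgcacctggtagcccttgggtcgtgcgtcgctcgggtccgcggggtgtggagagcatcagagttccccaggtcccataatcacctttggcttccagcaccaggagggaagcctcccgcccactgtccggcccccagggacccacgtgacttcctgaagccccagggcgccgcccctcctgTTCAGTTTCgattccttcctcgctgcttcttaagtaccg
Trim56: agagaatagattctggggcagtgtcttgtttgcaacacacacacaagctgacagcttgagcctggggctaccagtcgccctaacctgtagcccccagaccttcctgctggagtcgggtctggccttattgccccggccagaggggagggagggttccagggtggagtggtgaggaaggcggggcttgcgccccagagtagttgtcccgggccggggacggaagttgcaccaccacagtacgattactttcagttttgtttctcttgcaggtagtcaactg
Trim69: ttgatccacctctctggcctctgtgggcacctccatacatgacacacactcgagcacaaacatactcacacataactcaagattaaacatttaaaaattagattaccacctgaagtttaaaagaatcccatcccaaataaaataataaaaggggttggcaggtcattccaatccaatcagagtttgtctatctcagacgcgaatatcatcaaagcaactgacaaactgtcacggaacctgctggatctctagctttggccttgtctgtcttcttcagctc
Trim30a: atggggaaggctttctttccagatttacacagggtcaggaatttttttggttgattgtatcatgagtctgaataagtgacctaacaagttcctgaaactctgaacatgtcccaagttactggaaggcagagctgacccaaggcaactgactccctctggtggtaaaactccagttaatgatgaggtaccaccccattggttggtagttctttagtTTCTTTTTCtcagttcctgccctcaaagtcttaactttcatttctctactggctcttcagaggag

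RefSeq windows were found for 53 of the 68 members, 67 windows in all; Trim14 had none. The ISRE core stood in 13 of the 67 member windows (19.4%), against 8.56% of all 32851 promoter windows; outside the chromosome 7 cluster it stood in 5 of 56 (8.93%). Trim21 held overlapping matches at +14 to +22 and +20 to +28, both just after the start, and Trim25 held a match at -9 to -1 on the opposite strand. Neither the ISRE core nor the GAS letters TTCNNNGAA (8.30% of all windows, 10.4% of member windows) were found in the windows of Trim56, Trim69, Trim47 or Trim9, while Trim15 held GAS letters. Of the 10 members in the chromosome 7 cluster, 7 held an ISRE core (8 of 11 windows, 72.7%). A letter match describes the window and was not tested as a binding site.

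Levels were compared between members per kilobase of exon (RPKM, computed from the counts). Trim28, the corepressor KAP1 that serves KRAB zinc finger proteins, was the highest member in each table, at 97.4 ± 10.3 RPKM at 10 days (SD, n = 10), 163 ± 11.2 RPKM at 96 hours (SD, n = 6) and 141 ± 11 RPKM in tumors (SD, n = 18). At 10 days it was followed by Trim35 (50.4 ± 5.35 RPKM), Trim44 (47.1 ± 3.52 RPKM), Trim67 (44.2 ± 5.57 RPKM) and Trim37 (27.0 ± 1.51 RPKM), and the first 3 of these 4 lay within their joint spread. Trim59 took the place of Trim67 among the leading 5 at 96 hours and in tumors, and Trim44 came second there, at 74.2 ± 9.30 RPKM at 96 hours and 61.4 ± 4.45 RPKM in tumors. The interferon-linked members were far lower, with Trim56 at 5.38 RPKM and Trim21 at 2.81 RPKM averaged over the 10-day libraries. Trim9 stood at 3.20 RPKM at 10 days and at 0.531 RPKM in tumors; those tables differ in RNA type and in host cells, and the difference was not tested.

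IFNg raised 5 of the 39 members tested in DMSO cells and lowered none: Trim21, Trim69, Trim56, Trim15 and Trim25. Over all 15230 genes, 1.95% were called higher (adjusted p under 0.05 over all genes, edgeR quasi-likelihood test). The member count is not read against that share, because Trim21, Trim69 and Trim15 passed the filter on low counts only through the IFNg groups in which they were high; their IFNg changes are given as descriptions, with no p. The median member changed by -0.04 on the log2 scale, against -0.01 for all genes. In BOM cells IFNg again raised 5 of 39 members (background 1.73%): Trim21, Trim69, Trim56 and Trim25 were shared with DMSO cells, and Trim14 replaced Trim15.

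Trim21 (chr7:102557921-102565486, minus strand, mm10), the cytosolic Fc receptor that ubiquitinates antibody-coated virus, had the largest fitted fold change of the 5 in DMSO cells, with a counting interval that overlapped that of Trim69. It had 23.9 and 29.6 CPM in BOM cells with IFNg, 1.09 and 2.7 CPM in BOM cells, 15, 13.9 and 16.8 CPM in DMSO cells with IFNg, and 0.555, 0.503 and 0.176 CPM in DMSO cells. Every IFNg library lay above every library without it, and within each pair the BOM libraries lay above the DMSO libraries. The fitted log2 change with IFNg was 5.11 ± 0.36 in DMSO cells and 3.80 ± 0.32 in BOM cells (SE). The level without IFNg rests on few reads: 288 counts with IFNg against 8 counts in DMSO cells gave a depth-adjusted ratio of 35.9 (95% counting interval 18 to 84.0).

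Trim69 (chr2:122160700-122179027, plus strand), an interferon-induced ligase known in human cells to restrict vesicular stomatitis virus, was nearly silent without IFNg. It had 3.88 and 5.34 CPM in BOM cells with IFNg, 0 and 0.450 CPM in BOM cells, 3.68, 3.48 and 3.30 CPM in DMSO cells with IFNg, and 0.139, 0 and 0.351 CPM in DMSO cells. In DMSO cells 66 counts with IFNg against 3 without gave a ratio of 22.0 (95% counting interval 7.19 to 109), and in BOM cells 74 against 3 gave 20.7 (6.81 to 103). The call in BOM cells was lost without BOM replicate 1. Trim69 starts 7616 bases downstream of B2m (chr2:122147686-122153083, plus strand), the MHC class I light chain. B2m, named after its values were seen, had 1222 to 1431 CPM in BOM cells with IFNg, 46.1 to 64.8 CPM in BOM cells, 829 to 924 CPM in DMSO cells with IFNg and 32.1 to 44.7 CPM in DMSO cells.

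Trim56 (chr5:137105644-137116209, minus strand), an antiviral ligase linked to STING and TLR3 signaling, responded to both agents. It had 97.2 and 102 CPM in BOM cells with IFNg, 40.9 and 32.1 CPM in BOM cells, 72.9, 55.3 and 56.3 CPM in DMSO cells with IFNg, and 17.8, 13.1 and 11.9 CPM in DMSO cells. The 4 groups did not overlap, and their order was BOM with IFNg, DMSO with IFNg, BOM, DMSO. IFNg changed it by 2.09 ± 0.15 log2 units in DMSO cells (SE, adjusted p = 3.37e-08) and by 1.45 ± 0.17 in BOM cells (adjusted p = 1.59e-05).

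Trim25 (chr11:88999376-89020293, plus strand), which ubiquitinates in the RIG-I pathway and is a target of ISG15, was well expressed before IFNg. It had 97.5 and 102 CPM in BOM cells with IFNg, 51.7 and 56.9 CPM in BOM cells, 78.4, 77.5 and 79.9 CPM in DMSO cells with IFNg, and 45.5, 44.2 and 46.7 CPM in DMSO cells. Its rise was small and even between replicates, 0.79 ± 0.08 log2 units in DMSO cells (SE, adjusted p = 6.2e-06) and 0.87 ± 0.10 in BOM cells (adjusted p = 1.53e-05).

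Trim14 (chr4:46493781-46536141, minus strand), a RING-less adaptor of mitochondrial antiviral signaling, had 13.5 and 12.6 CPM in BOM cells with IFNg, 4.82 and 4.80 CPM in BOM cells, 8.27, 6.32 and 7.59 CPM in DMSO cells with IFNg, and 5, 3.18 and 3.86 CPM in DMSO cells. IFNg raised it in BOM cells (1.44 ± 0.27 log2 units, SE, adjusted p = 0.00537, between 0.00304 and 0.0882 over the omissions, lost without either BOM replicate), while in DMSO cells the change of 0.87 ± 0.24 had an adjusted p of 0.0865. Of its 4338 exon bases, 1650 overlap genes of the opposite strand, chiefly Nans, and the kit does not mark strand, so its counts are uncertain. Trim15 (chr17:36860691-36867210, minus strand) had 2.33 and 2.94 CPM in BOM cells with IFNg, 1.09 and 1.5 CPM in BOM cells, 2.30, 3.16 and 5.28 CPM in DMSO cells with IFNg, and 0.833, 1.34 and 0.878 CPM in DMSO cells. Its fitted change in DMSO cells was 1.80 ± 0.45 log2 units (SE), and its call there held in 1 of 10 omissions of a library and was lost with DESeq2.

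**Figure D1:**
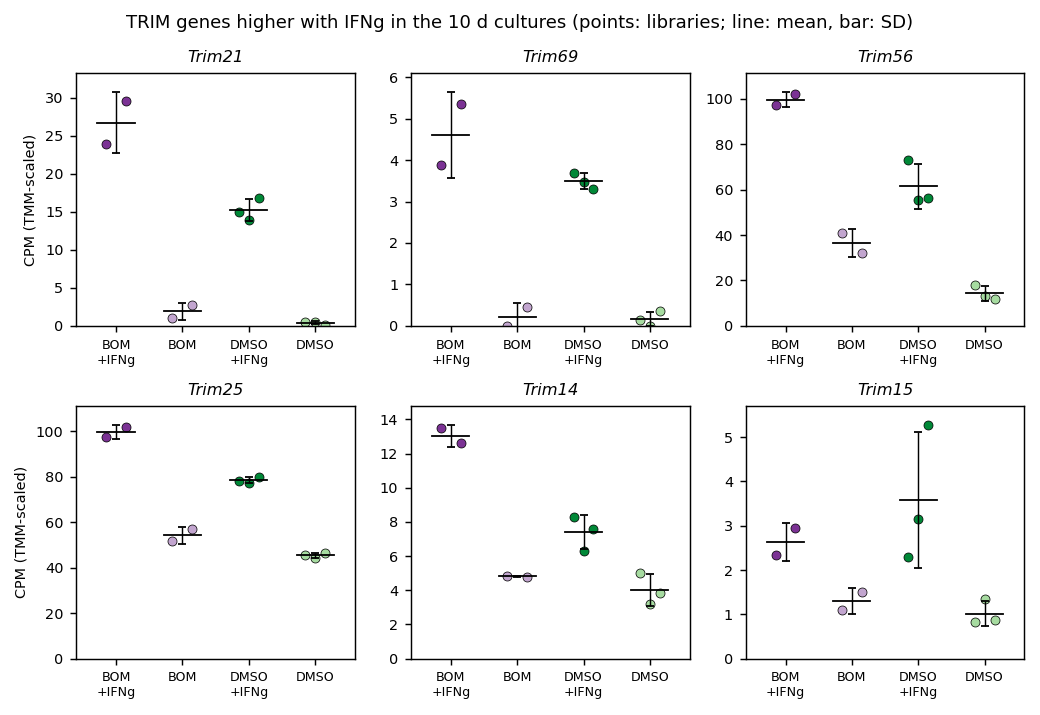
Level in CPM (linear axes from 0) of the 6 members raised by IFNg in the 10 libraries cultured for 10 days, grouped by treatment; points are libraries, lines means and bars SD. Trim21 with IFNg sits between 13.9 and 29.6 CPM, above every library without IFNg, of which the highest is 2.7 CPM.

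BOM without IFNg changed 5 of the 39 members, all higher than in DMSO cells: Trim47, Trim21, Trim9, Trim56 and Trim2. This share, 12.8%, was close to the 12.1% of all genes called higher. Among cells that all received IFNg, BOM raised 8 members (background 13.0%) and lowered 3 (background 10.1%). The added higher calls were Trim14, Trim25 and Trim65, and the lower ones Trim24, Trim27 and Trim28. With library size alone as the scaling, the split over all genes without IFNg moved from 1837 higher and 1257 lower to 2196 higher and 924 lower, and members became 6 higher and 0 lower through the addition of Trim25; with IFNg it moved from 1979 and 1539 to 2282 and 1074, and members to 8 higher and 1 lower. With the replicate block, and likewise without the filter on low counts, Trim66 and Trim67 were called lower with BOM without IFNg, beside the same 5 higher members. Trim67 changed there by -0.30 ± 0.11 log2 units (SE, adjusted p = 0.0615) and Trim66 by -1.22 ± 0.60 (adjusted p = 0.176) with no block, so neither was called.

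Trim47 (chr11:116105752-116127210, minus strand) had the largest BOM response. It had 21.3 and 29.8 CPM in BOM cells with IFNg, 20.7 and 18.9 CPM in BOM cells, 3.22, 2.69 and 5.45 CPM in DMSO cells with IFNg, and 2.64, 2.18 and 3.86 CPM in DMSO cells. All 4 BOM libraries lay above all 6 DMSO libraries, with or without IFNg. BOM changed it by 2.78 ± 0.28 log2 units without IFNg (SE, adjusted p = 1.35e-06) and by 2.76 ± 0.26 with IFNg (adjusted p = 5.9e-07). Trim47 shares 225 exon bases with Trim65, its neighbour on the same strand, so some of their reads could not be assigned to either with certainty. Trim65, which ubiquitinates the RNA sensor MDA5, had 10.7 and 9.37 CPM in BOM cells with IFNg, 11.2 and 8.26 CPM in BOM cells, 6.59, 5.22 and 3.80 CPM in DMSO cells with IFNg, and 7.36, 5.53 and 6.50 CPM in DMSO cells. It rose with IFNg present (0.94 ± 0.27 log2 units, SE, adjusted p = 0.016, between 0.00841 and 0.0894 over the omissions, lost without DMSO with IFNg replicate 3 or BOM with IFNg replicate 1).

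Trim9 (chr12:70244533-70347614, minus strand), a brain-enriched ligase that acts in netrin-guided axon branching, had 79.9 and 71.7 CPM in BOM cells with IFNg, 80.3 and 70.1 CPM in BOM cells, 28.9, 23.6 and 20.5 CPM in DMSO cells with IFNg, and 29.7, 24.6 and 25.6 CPM in DMSO cells. The BOM and DMSO libraries did not overlap, and IFNg left no called change. The log2 change was 1.49 ± 0.14 without IFNg (SE, adjusted p = 3.97e-07) and 1.63 ± 0.14 with IFNg (adjusted p = 1.2e-07). Trim2, a ligase of the NHL group that acts on neurofilament light chain, had 208 and 214 CPM in BOM cells with IFNg, 192 and 192 CPM in BOM cells, 150, 146 and 149 CPM in DMSO cells with IFNg, and 148, 154 and 156 CPM in DMSO cells. Its rise was small: 0.33 ± 0.08 log2 units without IFNg (SE, adjusted p = 0.00539) and 0.51 ± 0.08 with IFNg (adjusted p = 0.000101).

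The IFNg-raised members Trim21 and Trim56 also rose with BOM alone. Trim56 changed by 1.34 ± 0.17 log2 units (SE, adjusted p = 2.07e-05) without IFNg and by 0.69 ± 0.14 with it (adjusted p = 0.0018). Trim21 changed by 2.12 ± 0.54 (adjusted p = 0.00873) without IFNg, from 25 counts in BOM cells against 8 in DMSO cells, a ratio of 4.50 (95% counting interval 1.97 to 11.5). Without BOM replicate 2 that change was 1.32, with an adjusted p of 0.263 (0.00325 to 0.263 over the omissions). With IFNg, Trim21 changed by 0.82 ± 0.22 (adjusted p = 0.011), Trim25 by 0.34 ± 0.09 (adjusted p = 0.00914) and Trim14 by 0.82 ± 0.23 (adjusted p = 0.0172). Without BOM with IFNg replicate 2, the adjusted p was 0.165 for Trim21 (0.006 to 0.165 over the omissions) and 0.104 for Trim25 (0.00934 to 0.104). That of Trim14 ranged from 0.0114 to 0.0878 and passed 0.05 without either BOM with IFNg replicate or DMSO with IFNg replicate 2.

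The 3 members called lower with BOM were called among cells with IFNg, and the changes were small. Trim28 had 335 and 339 CPM in BOM cells with IFNg, 362 and 418 CPM in BOM cells, 416, 426 and 447 CPM in DMSO cells with IFNg, and 429, 441 and 439 CPM in DMSO cells. It changed by -0.35 ± 0.08 log2 units with IFNg present (SE, adjusted p = 0.00527), a call kept in all 10 omissions of a library, and by -0.16 without IFNg, which was not called. Trim24, a TIF1 corepressor and reader of acetylated chromatin, changed by -0.22 ± 0.08 with IFNg (adjusted p = 0.0498), which held in 0 of 10 omissions (0.05 to 0.21). Trim27 changed by -0.37 ± 0.12 with IFNg (adjusted p = 0.0378), which held in 5 of 10 (0.00681 to 0.208); its call was lost without DMSO replicate 2, DMSO with IFNg replicates 1 or 3, or either BOM with IFNg replicate. Trim33, the TIF1 protein of SMAD signaling, was not called, with changes of -0.22 ± 0.08 without IFNg (adjusted p = 0.0729) and -0.08 ± 0.08 with it. Trim24 had 180 and 185 CPM in BOM cells with IFNg, 188 and 194 CPM in BOM cells, 217, 205 and 217 CPM in DMSO cells with IFNg, and 216, 224 and 221 CPM in DMSO cells, so its BOM and DMSO libraries did not overlap.

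**Figure D2:**
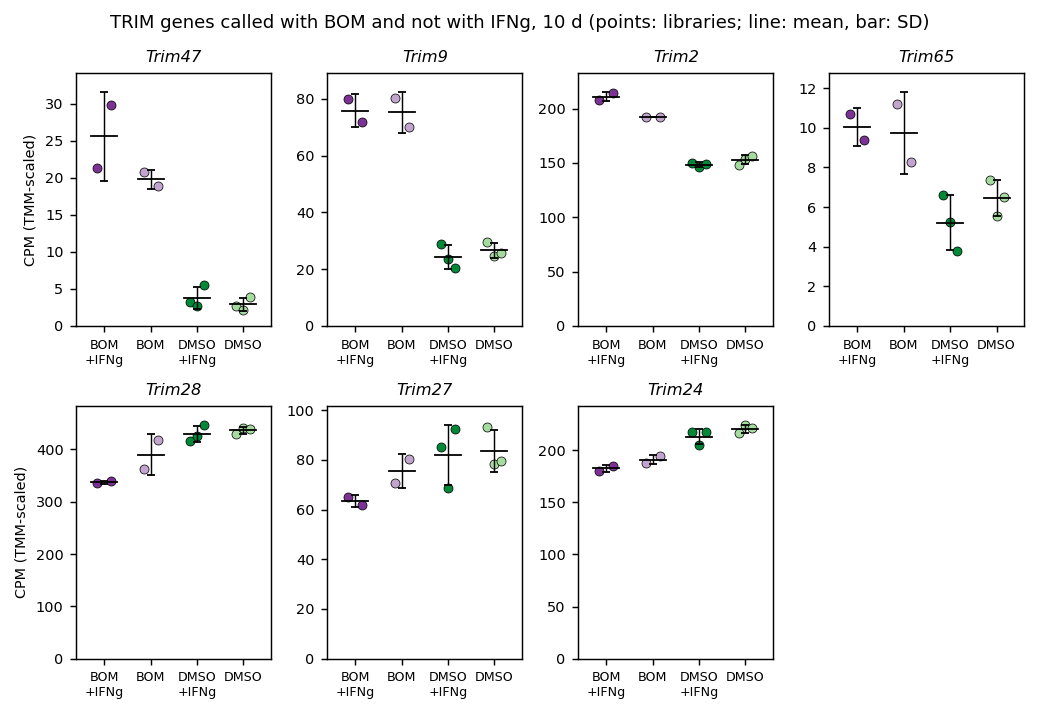
Level in CPM (linear axes from 0) of the 7 members called for BOM and not for IFNg in the 10 libraries cultured for 10 days, grouped by treatment; points are libraries, lines means and bars SD. Trim47 sits between 18.9 and 29.8 CPM in the BOM libraries and between 2.18 and 5.45 CPM in the DMSO libraries.

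The calls separated the 39 tested members as follows. Called higher with IFNg and not changed with BOM were 2 members, Trim15 and Trim69. Both passed the filter on low counts only through the IFNg groups, as did Trim21, so their IFNg calls are descriptions and not support for a class. The call of Trim15 was also lost with DESeq2. Called for BOM and not for IFNg were 7 members, of which Trim2, Trim9, Trim47 and Trim65 were higher and Trim24, Trim27 and Trim28 lower. Trim14, Trim21, Trim25 and Trim56 were called for both, and 26 members for neither. The classes were not counted over all genes, so their sizes are descriptions. Of all genes, IFNg called 2.27% in DMSO cells and 2.06% in BOM cells, in either direction. BOM called 20.3% without IFNg and 23.1% with it. Using only IFNg in DMSO cells and BOM without IFNg, 2 members were called for both, Trim21 and Trim56. These comparisons share libraries and a call missed in one is not a difference between them; the difference itself, the BOM by IFNg interaction, was called for 0 members and 0.0% of all genes. At an unadjusted p under 0.05 in edgeR's fit across all genes, which 4.76% of genes met, there were 2 members, neither passing adjustment: Trim56 (-0.65 ± 0.23 log2 units, SE, adjusted p = 0.849) and Trim21 (-1.31 ± 0.59, adjusted p = 1), and DESeq2 called 0 members.

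**Figure D3:**
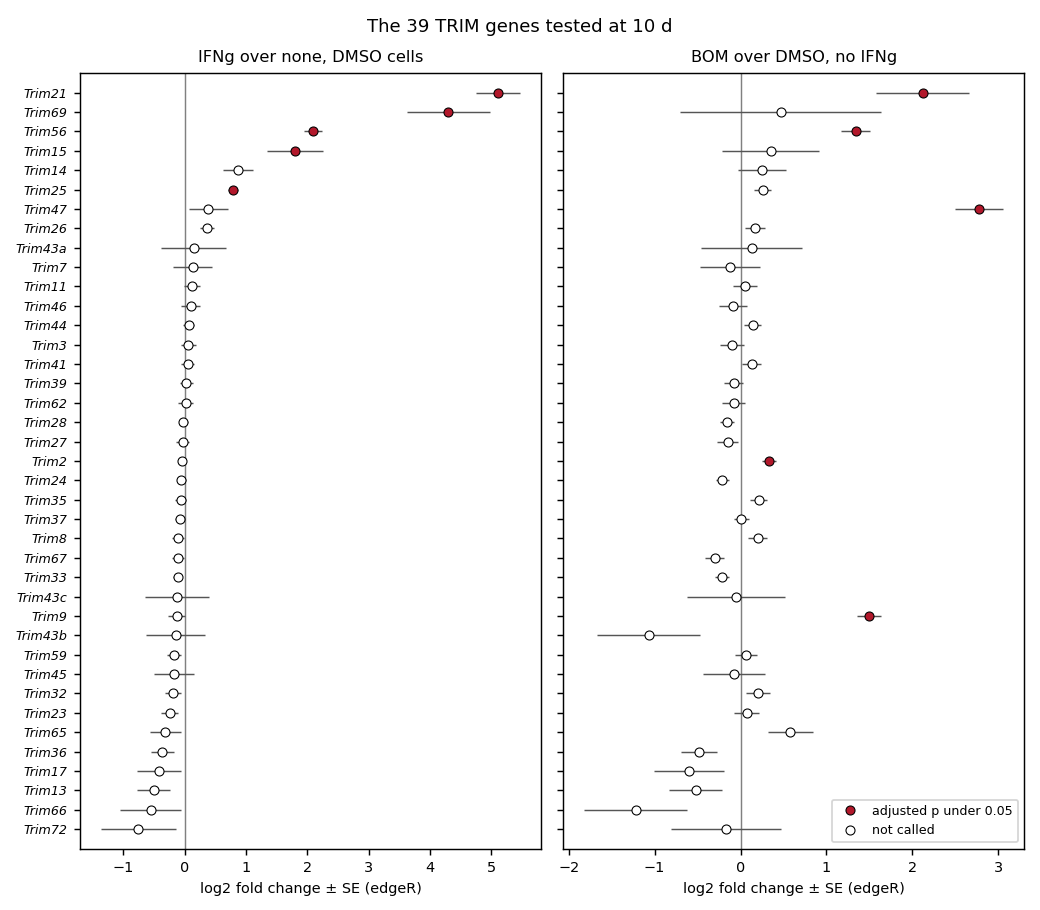
Log2 fold change (horizontal axes) of the 39 members tested at 10 days, with IFNg over none in DMSO cells on the left and BOM over DMSO without IFNg on the right; points are edgeR estimates, bars standard errors, and filled points called members. The panels share the DMSO libraries. Trim47 stands at 2.78 in the BOM panel with no call for IFNg, and Trim21 is called in both (5.11 and 2.12).

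Partners of these members on the listed pathways were counted in the same comparisons. The list for RIG-I sensing and ISG15 conjugation, which holds partners of Trim25, had 12 tested genes. Of these, 9 rose with IFNg in DMSO cells (1.95% of all genes rose) and 9 in BOM cells (1.73%). The list medians were 1.74 and 2.28 log2 units, against -0.01 for all genes. Whether any listed gene passed the filter on low counts only through the IFNg groups was not examined. These IFNg counts and medians are therefore descriptions. With BOM, 6 of the 12 rose without IFNg (median 0.69; 12.1% of all genes) and 9 with IFNg (median 1.05; 13.0% of all genes), none falling. Among 10 tested partners of Trim28 in silencing, 0 changed with IFNg (2.27% of all genes in DMSO cells, 2.06% in BOM cells). With BOM, Chd3 fell without IFNg (8.25% of all genes fell), and Chd3 and Hdac2 fell with it (10.1%). None of the 10 listed ubiquitin-conjugating E2 enzymes tested changed at 10 days. With BOM, 20.3% of all genes were called without IFNg and 23.1% with it. At the IFNg shares just given, 0 of 10 says little about IFNg. Of 6 tested TRIM proteins whose symbols do not begin with Trim, Pml, the organizer of nuclear bodies, alone was called, rising with IFNg by 0.44 ± 0.11 log2 units in DMSO cells (SE, adjusted p = 0.0399) and by 0.76 ± 0.13 in BOM cells (adjusted p = 0.0026). Fibroblast markers also moved with BOM: their sum was 37.1 to 44.1 CPM in BOM cells with IFNg, 56.5 to 65.8 CPM in BOM cells, 13.9 to 17.0 CPM in DMSO cells with IFNg and 16.9 to 21.8 CPM in DMSO cells. Endothelial markers (2 of 5 tested, Kdr called higher in both BOM contrasts) summed to 52.2 to 52.5 CPM in BOM cells with IFNg, 33.8 to 47.5 CPM in BOM cells, 10.4 to 14.4 CPM in DMSO cells with IFNg and 9.83 to 12.1 CPM in DMSO cells. The part of these markers in the BOM results was not tested.

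At 96 hours, 0 of 34 members and 0.0% of all 13333 genes were called between BOM and DMSO. With 1 library per line and treatment, 2 residual degrees of freedom remained once line was a term. At an unadjusted p under 0.05 in edgeR's fit across all genes, which 6.09% of genes met, there were 4 members, none passing adjustment: Trim47 (1.77 ± 0.29 log2 units, SE, adjusted p = 0.222), Trim9 (0.98 ± 0.28, adjusted p = 0.541), Trim56 (0.62 ± 0.23, adjusted p = 0.75) and Trim66 (-1.07 ± 0.39, adjusted p = 0.736). DESeq2 called 1 member, Trim47 (0.371% of all genes), and 3 members, Trim9, Trim47 and Trim66, were called by edgeR when low-count genes were kept (1.38% of all genes).

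The lines differed in these members. Trim47 had 1.17 CPM with BOM against 0.608 CPM with DMSO in RP-116, 8.44 against 2.29 CPM in RP-48, and 27.3 against 7.17 CPM in G8545, higher with BOM in 3 of 3 lines. Trim9 had 25.8 CPM with BOM against 23.2 CPM with DMSO in RP-116, 53.3 against 26.9 CPM in RP-48, and 67.8 against 20.1 CPM in G8545. Trim56 had 26.2 CPM with BOM against 25.9 CPM with DMSO in RP-116, 15.9 against 8.17 CPM in RP-48, and 35.7 against 19.0 CPM in G8545. For these genes RP-116 was the line with the smallest difference. Trim66, the testis-enriched TIF1 member, had 39.3 CPM with BOM against 42.0 CPM with DMSO in RP-116, 1.11 against 2.29 CPM in RP-48, and 10.6 against 46.0 CPM in G8545. Trim21 had 1.87 CPM with BOM against 1.46 CPM with DMSO in RP-116, 0.905 against 1.20 CPM in RP-48, and 3.35 against 1.53 CPM in G8545, with no shared direction. The TIF1 genes were not called: Trim28 changed by -0.09 ± 0.12 log2 units (SE, adjusted p = 0.951), Trim24 by -0.03 ± 0.12 (adjusted p = 0.988) and Trim33 by 0.03 ± 0.15 (adjusted p = 0.993). Trim25 changed by 0.02 ± 0.12 (adjusted p = 0.994). Trim2 had 92.2 CPM with BOM against 122 CPM with DMSO in RP-116, 174 against 138 CPM in RP-48, and 135 against 103 CPM in G8545, lower in the first line and higher in the others (0.11 ± 0.17, adjusted p = 0.963). Trim10 (chr17:36869574-36877833), Trim40 (chr17:36881598-36890123) and Trim31 (chr17:36898118-36910214), neighbours on chromosome 17, were seen almost entirely in RP-116: Trim10 had 3.98 CPM with BOM against 5.35 CPM with DMSO there, Trim31 had 2.92 CPM in both and Trim40 had 0.936 against 1.09 CPM. In the other lines Trim10 reached at most 0.479 CPM and Trim31 and Trim40 were at 0.

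In flank tumors, where host cells contribute RNA and fewer cells of a type cannot be told apart from less RNA per cell, BOM over vehicle changed 4 of 39 members. Trim56 was higher (background 5.92% of 14332 genes), and Trim67, Trim66 and Trim24 were lower (background 8.07%). Trim56 had 31.2, 38.5, 42.7 and 31.3 CPM in BOM tumors, and 31.9, 28.4, 14.7, 15.1 and 9.56 CPM in vehicle tumors. Vehicle tumors 1 and 2 reached or approached the BOM tumors, and the other 3 lay well below them. The change was 0.80 ± 0.26 log2 units (SE, adjusted p = 0.0473) and was called in 5 of 18 omissions of a library (0.00577 to 0.119). It was 1.46 ± 0.21 without vehicle tumors 1 and 2. These 2 tumors had the highest Trim56 of the vehicle group, so leaving them out enlarges the change by construction, and no p is given.

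Trim67 (chr8:124793092-124834713, plus strand), the neuronal paralog of Trim9, had 125, 181, 151 and 112 CPM in BOM tumors, and 164, 225, 249, 304 and 264 CPM in vehicle tumors. Its lowest vehicle tumor was vehicle 1, which lay inside the BOM range. It changed by -0.76 ± 0.17 log2 units (SE, adjusted p = 0.00818), a call kept in all 18 omissions. Neuroendocrine SCLC markers moved in the same contrast: of the 10 listed, 6 were called lower (Calca, Chga, Chgb, Foxa2, Scg3 and Syp) and 2 higher, with a median of -0.65 log2 units, and their part in the result was not tested. Trim66 had 2.69, 2.92, 1.99 and 1.53 CPM in BOM tumors, and 3.21, 4.01, 7.99, 5.65 and 5.82 CPM in vehicle tumors, with no overlap (-1.19 ± 0.33, adjusted p = 0.022). Without vehicle tumors 3 or 5, or BOM tumors 3 or 4, the adjusted p of Trim66 passed 0.05, its range being 0.00705 to 0.0748. Trim24 had 130, 127, 123 and 133 CPM in BOM tumors, and 137, 140, 169, 150 and 157 CPM in vehicle tumors (-0.23 ± 0.07, adjusted p = 0.043, kept in 8 of 18 omissions, 0.0203 to 0.124). Trim21 (0.45 ± 0.34, adjusted p = 0.428), Trim25 (0.06 ± 0.08, adjusted p = 0.643) and Trim2 (0.05 ± 0.07, adjusted p = 0.732) were not called for BOM over vehicle, nor were Trim28 and Trim33. Without vehicle tumors 1 and 2, 7 members were called, Trim26, Trim47 and Trim56 higher and Trim24, Trim66, Trim67 and Trim69 lower. Under that setting, which follows values seen in these tumors, 23.1% of all genes were called.

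The contrast of BOM plus anti-PD1 over anti-PD1 called the most members, 14 of 39 (35.9%), close to the 32.1% of all genes called. Of the 14, 9 were higher (background 15.7%) and 5 lower (background 16.5%). Trim56 had 58.0, 37.6, 52.4 and 41.9 CPM in BOM plus anti-PD1 tumors, and 17.2, 13.2, 11.5, 13.1 and 10.1 CPM in anti-PD1 tumors. Trim47 had 11.6, 10.5, 9.65 and 8.78 CPM in BOM plus anti-PD1 tumors, and 4.27, 1.42, 4.43, 2.05 and 1.28 CPM in anti-PD1 tumors. Trim21 had 17.9, 7.51, 14.4 and 11.5 CPM in BOM plus anti-PD1 tumors, and 7.28, 3.74, 3.72, 2.79 and 4.41 CPM in anti-PD1 tumors. None of these 3 genes overlapped between the groups, although for Trim21 the closest tumors were 7.51 and 7.28 CPM. Of the other called members, Trim7, Trim11, Trim14 and Trim66 did overlap. The share of all genes without overlap was not computed. The log2 changes were 1.87 ± 0.27 for Trim56 (SE, adjusted p = 0.000134), 1.92 ± 0.41 for Trim47 (adjusted p = 0.0018) and 1.54 ± 0.35 for Trim21 (adjusted p = 0.00303).

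The other higher members changed less. Trim14 changed by 0.82 ± 0.23 log2 units (SE, adjusted p = 0.0124), Trim26, an antiviral-pathway ligase, by 0.42 ± 0.10 (adjusted p = 0.00314) and Trim25 by 0.32 ± 0.08 (adjusted p = 0.00409). Trim45 (0.62 ± 0.22, adjusted p = 0.0398), Trim7 (0.52 ± 0.18, adjusted p = 0.0312) and Trim11 (0.28 ± 0.10, adjusted p = 0.0327) were less steady, being called in 13, 14 and 14 of 18 omissions, with adjusted p of 0.0284 to 0.138, 0.0113 to 0.0856 and 0.0142 to 0.0763. Trim45 lost its call without anti-PD1 tumors 2, 4 or 5 or BOM plus anti-PD1 tumors 2 or 4. Trim7 lost it without tumors 1 or 4 of either group, and Trim11 without anti-PD1 tumors 2 or 3 or BOM plus anti-PD1 tumors 2 or 4. All these losses came from tumors of the groups compared. The 18 omissions also include vehicle and BOM tumors, which are not in this contrast. With the replicate block, the adjusted p was 0.0784 for Trim45 and 0.069 for Trim7.

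Trim67 had 163, 140, 105 and 190 CPM in BOM plus anti-PD1 tumors, and 263, 292, 288, 273 and 274 CPM in anti-PD1 tumors. The groups were well apart (-0.90 ± 0.17 log2 units, SE, adjusted p = 0.00085). Trim37, the ligase that limits centriole assembly, had 201, 188, 193 and 188 CPM in BOM plus anti-PD1 tumors, and 216, 256, 251, 247 and 241 CPM in anti-PD1 tumors (-0.33 ± 0.06, adjusted p = 0.000643). Trim66 changed by -1.12 ± 0.33 (adjusted p = 0.0144), Trim24 by -0.27 ± 0.07 (adjusted p = 0.00869) and Trim27 by -0.22 ± 0.06 (adjusted p = 0.0132). Without BOM plus anti-PD1 tumor 1, the call of Trim27 was lost at 0.054, its range being 0.00759 to 0.054. Trim28 had a change of -0.18 ± 0.07 (adjusted p = 0.0506), which DESeq2 called (adjusted p = 0.0419), and Trim33 and Trim2 each of -0.06, not called.

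**Figure D4:**
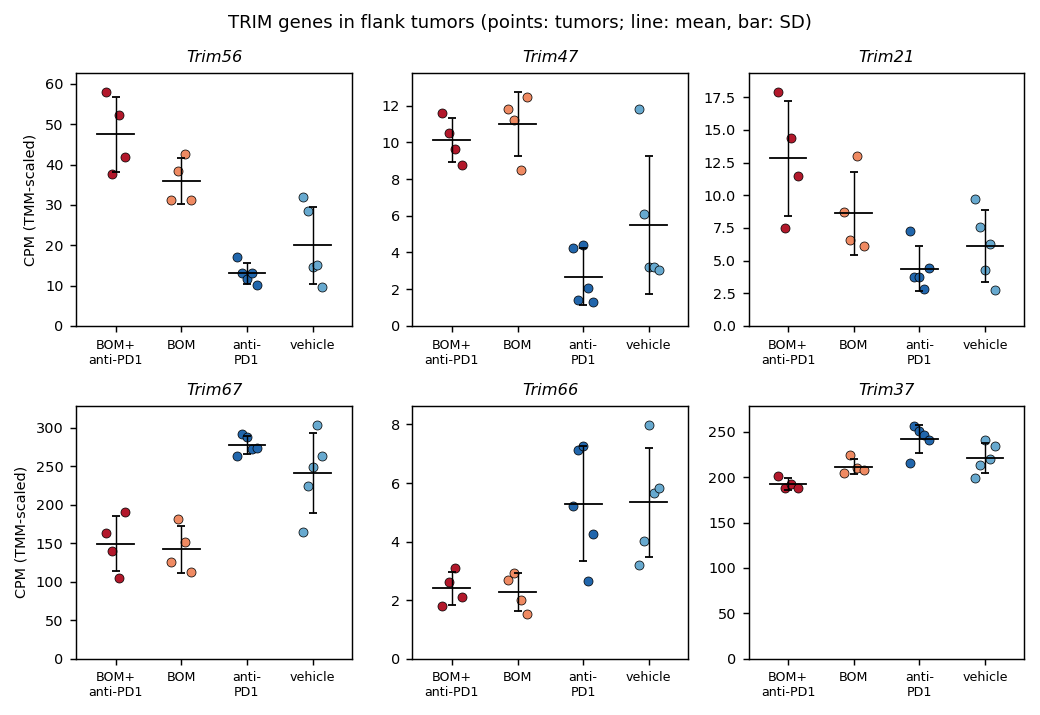
Level in CPM (linear axes from 0) of 6 called members in the 18 flank tumors, grouped by treatment; points are tumors, lines means and bars SD. Trim56 is 37.6 to 58 CPM in BOM plus anti-PD1 tumors and 10.1 to 17.2 CPM in anti-PD1 tumors, and vehicle tumors 1 and 2 (31.9 and 28.4 CPM) lie near the BOM tumors.

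Against vehicle, BOM plus anti-PD1 tumors had 6 members called: 3 higher (background 5.34%) and 3 lower (background 5.49%). Trim56 changed by 1.20 ± 0.26 log2 units (SE, adjusted p = 0.00976), Trim26 by 0.31 ± 0.09 (adjusted p = 0.044) and Trim25 by 0.28 ± 0.08 (adjusted p = 0.0261). Trim66 changed by -1.10 ± 0.32 (adjusted p = 0.0365), Trim67 by -0.69 ± 0.17 (adjusted p = 0.0188) and Trim37 by -0.20 ± 0.06 (adjusted p = 0.042). Over the 18 omissions of a library, Trim56 was called in 18, Trim67 in 14 (adjusted p 0.00208 to 0.0584), Trim25 in 13 (0.0122 to 0.0894), Trim66 in 12 (0.0113 to 0.106), Trim37 in 7 (0.0119 to 0.135) and Trim26 in 6 (0.0076 to 0.131). Each of these except Trim56 lost its call without vehicle tumor 4 and without vehicle tumor 5, among other tumors. With the replicate block 3 members were called (7.7% of all genes), and without vehicle tumors 1 and 2 there were 9 (22.8% of all genes). With no block and all tumors, 10.8% of all genes were called, so the member counts moved with the shares over all genes. Neither edgeR nor DESeq2 called a member in the remaining 3 contrasts (0 of 39 each). For anti-PD1 over vehicle, where 0.0% of genes were called, 6 members had an unadjusted p under 0.05, as did 9.76% of all genes. For BOM plus anti-PD1 over BOM (0.0% of genes) the number was 3, against 7.51% of all genes. For the BOM by anti-PD1 interaction (0.0% of genes) it was 6, against 8.67% of all genes, so the larger number of calls under anti-PD1 was not shown to be a different BOM effect.

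The BOM response of Trim9 in culture was not seen in tumors. Trim9 had 6.42, 9.18, 5.66 and 7.22 CPM in BOM plus anti-PD1 tumors, 6.45, 9.98, 6.78 and 5.86 CPM in BOM tumors, 6.80, 7.47, 9.21, 8.22 and 7.96 CPM in anti-PD1 tumors, and 7.44, 6.88, 7.99, 9.62 and 6.65 CPM in vehicle tumors. All groups overlapped. The change in BOM over vehicle tumors was -0.08 ± 0.18 log2 units (SE, adjusted p = 0.833), and in BOM plus anti-PD1 over anti-PD1 tumors it was -0.15 ± 0.19 (adjusted p = 0.561). Trim69 and its neighbour B2m were both high with IFNg in culture, while in tumors Trim69 had 1.27 to 1.81 CPM in BOM plus anti-PD1, 0.637 to 1.33 CPM in BOM, 1.32 to 3.32 CPM in anti-PD1 and 1.44 to 3.06 CPM in vehicle tumors, while B2m had 987 to 1441, 602 to 1102, 470 to 1027 and 632 to 1012 CPM in the same groups. In BOM plus anti-PD1 over anti-PD1 tumors, 10 of 13 tested genes of the RIG-I and ISG15 list rose (median 0.82 log2 units; 15.7% of all genes rose) and none fell, Pml rose by 0.26 ± 0.07 (SE, adjusted p = 0.0094), and 5 of 9 tested E2 enzymes fell (Ube2d2a, Ube2e2, Ube2e3, Ube2n and Ube2w; 16.5% of all genes fell). Of 11 tested Trim28 partners, Atf7ip and Chd3 rose and Cbx5, Hdac1 and Hdac2 fell.

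Immune markers were summed beside these results. Macrophage markers (10 of 10 tested) summed to 583 to 1280 CPM in BOM plus anti-PD1 tumors, 494 to 1193 CPM in BOM tumors, 245 to 1140 CPM in anti-PD1 tumors and 530 to 1508 CPM in vehicle tumors. T cell markers (9 of 10 tested, Trac at 0) summed to 21.2 to 45.9, 10.6 to 36.9, 8.81 to 25.5 and 11.6 to 35.2 CPM in the same groups. The ranges of the groups overlapped for both sums. In BOM plus anti-PD1 over anti-PD1 tumors, 2 of the 9 T cell markers (Cd4 and Cd8a) were called higher, where 15.7% of all genes were. Of the 10 macrophage markers 1 (Cd14) was called higher, and of 3 pan-leukocyte markers 0. The part of immune markers in the tumor results was not tested.

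The chromosome 7 cluster of 10 members (Trim6, Trim34a, Trim5, Trim12a, Trim34b, Trim12c, Trim30b, Trim30c, Trim30a and Trim30d, chr7:104218793-104507849), the mouse counterpart of the retrovirus restriction locus, had 18 counts in total over the 16 culture libraries, and 4 of its members had none. At 10 days there were 11 counts with BOM and IFNg, 3 with BOM, 2 with DMSO and IFNg and 1 with DMSO. At 96 hours there was 1 with BOM. These counts are too few to test. In the 18 tumors it had 5392 counts, 2314 without vehicle tumor 1. Summed, the cluster had 47.7, 16.6, 14.8 and 11.5 CPM in BOM plus anti-PD1 tumors, 14.6, 17.4, 43.5 and 9.42 CPM in BOM tumors, 37.8, 11.4, 14.2, 5.72 and 5.40 CPM in anti-PD1 tumors, and 36.8, 12.8, 17.9, 25.1 and 12.5 CPM in vehicle tumors. In each of the 4 groups 1 tumor stood above the rest, and all groups overlapped. The pan-leukocyte markers Ptprc, Coro1a and Lcp1 summed to 189, 87.2, 65.2 and 106 CPM in BOM plus anti-PD1 tumors, 55.6, 72.1, 147 and 61.0 CPM in BOM tumors, 132, 72.8, 84.1, 32.3 and 40.1 CPM in anti-PD1 tumors, and 230, 78.3, 68.6, 79.3 and 50.7 CPM in vehicle tumors. In 4 of 4 groups the tumor with the highest cluster sum also had the highest pan-leukocyte, macrophage and T cell sums. That tumor also had the highest fibroblast marker sum in BOM plus anti-PD1 (597 CPM), anti-PD1 (2005 CPM) and vehicle (1229 CPM) tumors. In BOM tumors it had 1323 CPM, against 1744 CPM in BOM tumor 2. Below the top tumor the match did not always hold. BOM plus anti-PD1 tumor 4 had the lowest cluster sum of its group (11.5 CPM) but a pan-leukocyte sum of 106 CPM. The source of the cluster reads was not tested. The 4 members tested (Trim12a, Trim12c, Trim30a and Trim30d) were called in none of the tumor comparisons. Near-identical copies within the cluster, such as Trim34a and Trim34b, share exon sequence, so reads could be split between them.

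**Figure D5:**
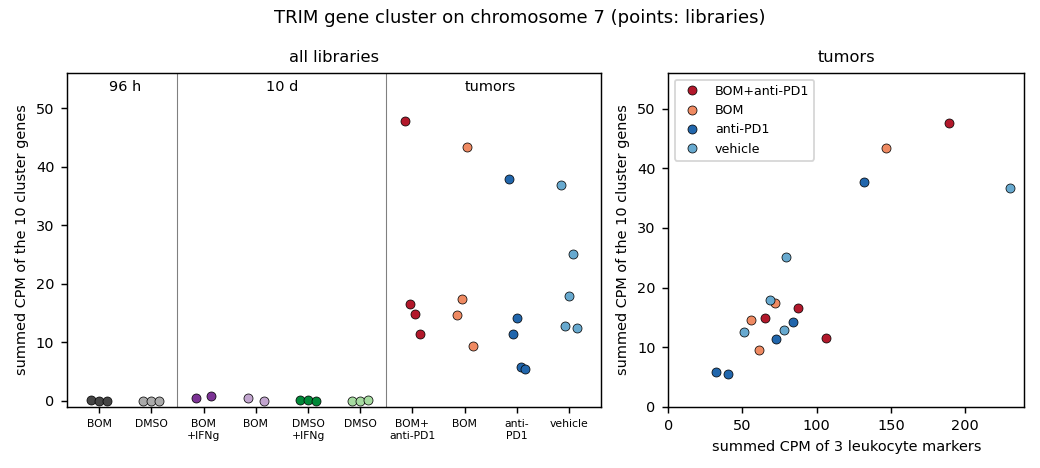
Summed level of the 10 chromosome 7 cluster members (CPM), on the left in all 34 libraries by table and treatment, on the right in the 18 tumors against summed pan-leukocyte markers (CPM); points are libraries. Culture libraries sit near 0, and the tumor with the highest cluster sum in each group (47.7, 43.5, 37.8 and 36.8 CPM) also has its group's highest pan-leukocyte sum.

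Muscle TRIM genes marked a single tumor. BOM tumor 2 had 9.01 CPM of Trim63, the atrophy ligase MuRF1, 4.02 CPM of Trim72, a membrane repair protein, and 2.19 CPM of Trim54. Elsewhere these reached at most 1.27, 1.27 and 0.227 CPM, and skeletal muscle markers summed to 1420 CPM in that tumor against 6.32 to 194 CPM in the others. Trim55, also of the MuRF group, did not follow: it had 2.31 CPM in BOM tumor 2 and 4.57 to 9.21 CPM in the other tumors.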

How the data were processed

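RNA-seq read counts per gene were deposited by the authors as 3 tables, for the 96-hour cultures, the 10-day cultures and the tumors. Per the submitters' processing notes, the tools were bcl2fastq, FastQC 0.11.9, STAR 2.7 and featureCounts from Subread 2.0, with build mm10; their settings are not given in the sources used here. The labels' protocols name a library kit that does not mark strand. Samples were grouped by their labels, 0 columns belonged to other samples, and no replicates were copies (lowest chi-square per degree of freedom 2.55). The labels do not say whether replicates were separate cultures, so p-values cover only the variation among these samples, and that may be technical. The members and gene lists were chosen with earlier results of these data known.

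Each table was filtered with filterByExpr (minimum count 10), scaled by TMM and fitted whole in R 4.3.3 with edgeR 4.0.16 (glmQLFit and glmQLFTest), with 1 coefficient per group (10 days and tumors) or line plus treatment (96 hours). Benjamini-Hochberg adjustment ran over all genes tested, and calls needed an adjusted p under 0.05. Errors beside log2 changes are approximate standard errors (SE). Each is the size of the log2 change divided by the square root of the F value of its edgeR test. CPM and RPKM were computed from the deposited counts on TMM-scaled library sizes, RPKM with the deposited gene lengths. Counting intervals cover counting error only. The precision follows the depth given with the samples: a member below about 1 CPM rests on under 10 reads in most culture libraries.

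A member was named with values where called, and Trim2, Trim9, Trim21, Trim24, Trim25, Trim28 and Trim33 in every table; others named were chosen after their values were seen. At 10 days, deviations from the group means correlated between DMSO and DMSO plus IFNg libraries at 0.427, 0.127 and 0.131 for replicates 1, 2 and 3. That is a hint of pairing by number. BOM and BOM plus IFNg libraries gave 0.222 for both replicates, and other pairs of groups 0.048 to 0.234. Pairing could be named only for groups sharing 3 replicates, which left out the BOM groups. Libraries with unlike numbers were not correlated. Alternatives were DESeq2 1.42.0, RLE size factors, library size alone, no filter on low counts, a replicate block, each library left out in turn, and vehicle tumors 1 and 2 left out together. These 2 tumors stood apart in Trim56, Trim47 and Trim67, so leaving them out is no independent check. The omissions took every library of a table, also those outside a contrast, which do not enter its group means. Numbers of calls kept, and the totals over all recomputations, therefore overstate steadiness. The fits were tested on simulated data.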

Additional observations from a re-analysis of the deposited data

Results flagged for a closer look

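Of 56 groups of 4 or 5 tumors examined over 14 members, 3 held a tumor far from the rest of its group; chance alone marks about 1 in 20 such groups. Trim27 had 125 CPM in BOM plus anti-PD1 tumor 1, with the nearest tumor of that group at 137 CPM. Trim45 had 3.06 CPM in vehicle tumor 4, with the nearest at 4.26 CPM. Trim7 had 7.62 CPM in vehicle tumor 5, with the nearest at 10.8 CPM.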

How the results depend on the processing

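The 50 called fold changes named here were recomputed 966 times under the alternatives; 827 kept direction and call, 139 kept the direction and lost the call, and 0 turned round. Leaving out 1 library at a time gave 4 to 5 called members for IFNg in DMSO cells, 3 to 5 for IFNg in BOM cells (3 without BOM replicate 1), 5 to 6 for BOM over DMSO and 6 to 10 for BOM over DMSO with IFNg (7 and 6 without BOM with IFNg replicates 1 and 2). In tumors it gave 1 to 6 for BOM over vehicle (1 without vehicle tumors 3 or 5 or BOM tumors 3 or 4), 12 to 15 for BOM plus anti-PD1 over anti-PD1, and 1 to 8 for BOM plus anti-PD1 over vehicle (1 without vehicle tumors 4 or 5). Calls over all genes fell too. BOM over vehicle went from 2004 genes to 1343, 1154, 1508 and 1259 without those 4 tumors in turn. BOM plus anti-PD1 over vehicle went from 1552 genes to 650 and 646 without vehicle tumors 4 and 5. Without vehicle tumors 1 and 2, BOM over vehicle had 7 (23.1% of all genes). Without the filter on low counts, 96 hours had 3 (1.38% of all genes), BOM over vehicle 2 (5.44%) and BOM plus anti-PD1 over vehicle 2 (3.93%). DESeq2 gave 1 at 96 hours (0.371%). With the replicate block, BOM plus anti-PD1 over vehicle had 3 called members (7.7% of all genes). The block gave 5 for IFNg in DMSO cells (3.14%) and 5 for IFNg in BOM cells (3.01%). It gave 7 for BOM over DMSO (22.2%) and 11 for BOM over DMSO with IFNg (24.8%). In tumors it gave 3 for BOM over vehicle (11.1%) and 12 for BOM plus anti-PD1 over anti-PD1 (27.2%). The tumor numbers did not pair the samples. The cause was not tested for any of these shifts.

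Changes of sign on leaving out 1 library were limited to values with no call. Trim28 with IFNg in DMSO cells ran from -0.05 to 0.00 log2 units. With IFNg in BOM cells, Trim33 ran from -0.01 to 0.05 and Trim9 from -0.09 to 0.10. At 96 hours, Trim25 ran from -0.07 to 0.07, Trim24 from -0.10 to 0.05, Trim33 from -0.16 to 0.16 and Trim2 from -0.03 to 0.36. Trim33 in BOM plus anti-PD1 over anti-PD1 tumors ran from -0.11 to 0.04. Depth limits the folds of Trim69, Trim15 and Trim21, whose groups without IFNg hold few reads.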
